A study of Mus musculus with 19 samples.

Results

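The 10 genes described here encode acute phase proteins of the liver: the serum amyloid A proteins (Saa1, Saa2, Saa3 and Saa4), the pentraxins C-reactive protein (Crp) and serum amyloid P component (Apcs), the siderophore-binding protein lipocalin 2 (Lcn2), the iron hormone hepcidin (Hamp), the inter-alpha-trypsin inhibitor heavy chain Itih4 and the fibrinogen-like protein Fgl1. The genes were listed as inducible, although in mice Saa4 is largely constitutive and Crp responds weakly. They were picked by symbol as a functional class, with earlier results of these data known, and all 10 were found among the 19486 named genes of the deposited expression table, which lists them in capitals as SAA1, SAA2, SAA3, SAA4, CRP, APCS, LCN2, HAMP, ITIH4 and FGL1. All 10 also had a value of at least 1 in at least 3 libraries, the minimum for testing, which 13253 genes met. Saa2 reached a value of 1 in 13 of the 19 libraries and in no library labelled OFF, Crp reached it in 17, and the other 8 genes reached it in all 19.

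RNA was measured in 19 mouse liver tumor samples in 5 groups. MYC_HCC and MYC_Twist1_HCC have 5 libraries each, and MYC_OFF, MYC_Recur and MYC_Twist1_OFF have 3 each; HCC is hepatocellular carcinoma, which is also the tissue the labels give for the OFF and Recur samples. The labels name MYC in all 5 groups and Twist1 in 2 of them, and give no strain, age, promoter, treatment or time point, nor what was done to the OFF and Recur samples. Nor do they tie any sample to an animal, and p-values therefore reflect how much these libraries vary, a spread that may be technical. The 10 HCC libraries are marked as re-analyses of older data while the remaining 9 are not, so wherever OFF or Recur libraries are set against HCC libraries, the group and the deposit cannot be told apart.

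The acute phase response is the change in the plasma proteins made by the liver after infection, injury or other inflammation. Interleukin 6 acts on hepatocytes through the receptor subunit gp130 and the transcription factor STAT3, and interleukin 1 and tumor necrosis factor act through NF-kB, with the C/EBP factors taking part in both arms. In mice Saa1 and Saa2 are among the most strongly induced liver genes, Apcs is the classical inducible pentraxin, Crp responds weakly, and Saa4 is largely constitutive. Hepcidin is driven both by STAT3 and by bone morphogenetic protein (BMP) signalling through SMAD factors, and it limits iron export by binding ferroportin.

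Saa1 and Saa2 lie 8.8 kb apart on chromosome 7, within a cluster of 42.3 kb that also holds Saa3 and Saa4, and Crp and Apcs start 197.0 kb apart on chromosome 1 (GRCm38, the assembly that mm10 names; GENCODE annotation). The upstream sequences of the genes whose values the results turn on follow, 5′ to 3′, from 250 bases before the RefSeq start site to the first annotated start site (RefSeq, GRCm38.p6). Capitals mark matches to 6 motifs on either strand: the C/EBP-type TTGCNNAA, the NF-kB-type motif (GG, any 3 bases, TTTCC), the STAT element TTCNNNGAA, the BMP-type GGCGCC, the E-box CACGTG and the TATA box TATAAA.
Saa1 (chr7:46742981-46743230, minus strand): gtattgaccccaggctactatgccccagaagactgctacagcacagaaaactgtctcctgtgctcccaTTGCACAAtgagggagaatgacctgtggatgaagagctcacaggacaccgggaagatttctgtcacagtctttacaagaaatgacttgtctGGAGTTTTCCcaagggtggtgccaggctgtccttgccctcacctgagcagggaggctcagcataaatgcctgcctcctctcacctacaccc
Saa2 (chr7:46751583-46751789, plus strand): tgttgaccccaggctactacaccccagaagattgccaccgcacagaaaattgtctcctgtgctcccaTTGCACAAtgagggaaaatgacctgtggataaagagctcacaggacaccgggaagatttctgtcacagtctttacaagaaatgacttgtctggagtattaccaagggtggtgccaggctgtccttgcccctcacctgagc
Crp (chr1:172697806-172698054, plus strand): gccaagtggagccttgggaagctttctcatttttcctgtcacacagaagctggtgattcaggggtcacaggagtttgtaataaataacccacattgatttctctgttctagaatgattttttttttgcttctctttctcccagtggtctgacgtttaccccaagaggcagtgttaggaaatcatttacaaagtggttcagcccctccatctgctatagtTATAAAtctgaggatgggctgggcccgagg
Apcs (chr1:172895055-172895304, minus strand): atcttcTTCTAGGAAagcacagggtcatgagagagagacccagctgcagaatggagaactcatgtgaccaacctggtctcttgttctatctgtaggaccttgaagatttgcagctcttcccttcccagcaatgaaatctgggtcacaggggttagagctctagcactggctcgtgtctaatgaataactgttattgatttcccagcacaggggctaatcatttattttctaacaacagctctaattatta
Hamp (chr7:30944033-30944279, minus strand): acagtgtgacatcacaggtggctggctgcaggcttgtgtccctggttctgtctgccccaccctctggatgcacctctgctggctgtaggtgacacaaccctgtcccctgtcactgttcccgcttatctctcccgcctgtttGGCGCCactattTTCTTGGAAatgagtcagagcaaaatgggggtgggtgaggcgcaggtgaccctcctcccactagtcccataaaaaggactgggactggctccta
The Saa pair is shown because the promoter windows of 300 bases (250 before and 50 after the start) are identical at 287 of 299 aligned bases, or 96.0%, while the values of the pair differ in the OFF groups. Counted from the RefSeq start site, the C/EBP-type match stands at -182 in Saa1 and at -183 in Saa2, and the NF-kB-type match, at -91, was found in the Saa1 window and not in that of Saa2. Crp held only the TATA box, at -31, Apcs only a STAT element, at -244, and Hamp a STAT element at -97 and a BMP-type match at -109. No member's window held the E-box, the site type bound by MYC with its partner MAX. In the 32851 mouse windows of the same length, 10.8% held the C/EBP-type motif, 5.48% the NF-kB-type, 8.3% the STAT element, 11.9% the BMP-type, 7.15% the E-box and 13.6% the TATA box. A match only says that these letters stand there. Windows were matched for 9 of the 10 genes, Fgl1 being the exception.

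Values are the authors' normalized signal and have no stated unit or length correction, so levels are compared between libraries and not between genes. The 19 library totals lay between 507868 and 690310. Myc was listed between 32.55 and 59.83 in the 6 OFF libraries and between 102.13 and 180.46 in the other 13. Twist1 was at most 0.12 in the libraries that carry its name and at most 0.27 in any library, so directions for the Twist1 groups rest on the labels. Hepatocyte markers were present throughout, with a summed value of 4808.77 to 6225.1 in the OFF libraries, 7078.77 to 8376.02 in MYC_Recur, 6260.02 to 8192.27 in MYC_Twist1_HCC and 8422.31 to 17428.5 in MYC_HCC. These sums understate how far most of the markers fell: albumin (Alb) lay between 241.23 and 410.75 in the OFF libraries and between 723.76 and 4480.12 in the others, while Ass1, at 1601 to 2873.16, made up much of the OFF sums and, with Serpina1b, was called higher in MYC_OFF than in MYC_HCC. The part of these markers in the results below was not tested. Fewer hepatocytes and less RNA per hepatocyte cannot be told apart in such bulk samples.

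The library MYC_HCC 4 stands apart and is described before any result. It had the highest value of all 19 libraries for 9 of the 10 acute phase genes, the exception being Fgl1, against 13.5% of all genes tested. It exceeded the median of the other 4 MYC_HCC libraries by more than 4-fold for 8 of the 10, against 3.15% of all genes tested. Itih4 was listed at 420.8 in this library and between 5.65 and 30.47 in the other 4, a ratio of 54.4 to their median. Lcn2 was listed at 57.08 against 1.52 to 17.37, a ratio of 21.9. The ratio was 14.9 for Fgl1, 9.88 for Saa3, 9.76 for Saa4, 8.47 for Saa1, 6.77 for Saa2 and 5.11 for Apcs, 2.42 for Hamp and 1.5 for Crp. The 4 serum amyloid A genes, the constitutive Saa4 included, were thus high together in this single library, while Crp, at 33.63, was close to the 27.9 of the next highest MYC_HCC library.

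Acute phase genes outside the 10 were high there too. Of 24 tested genes on a list of other positive acute phase proteins, 17 were highest of all libraries in MYC_HCC 4 and 12 were over 4-fold above the other MYC_HCC libraries' median. Orm1, an alpha-1-acid glycoprotein, was listed at 361.51 against 4.73 to 21.35 in the other 4. Hamp2, whose spliced transcript matches that of Hamp at 94.6% of aligned bases, was listed at 778.09 against at most 9.73 in any other library. Hamp itself was listed at 152.23. Negative acute phase proteins, which the liver makes less of during inflammation, were also high in MYC_HCC 4. Of 11 tested, 8 were highest of all libraries there and 0 were over 4-fold above the other MYC_HCC libraries' median. Their median log2 difference was 1.10. The summed hepatocyte markers of this library were 17428.5 against 8422.31 to 10151.7 in the other 4, its stellate cell and fibroblast markers 150.43 against 34.71 to 80.16, its macrophage and Kupffer cell markers 324.13 against 592.5 to 970.31, and its biliary and intestinal epithelial markers 17.69 against 92.7 to 119.26. The last 2 sums are dominated by their highest genes, such as Lyz2 (87.88 against 196.85 to 366.88) and Tff3 (1.04 against 5.92 to 54.27). Not every marker was low there: Clec4f stood at 4.11 against 0.38 to 2.27, and Lgals4 at 4.28 against 0.44 to 1.38. The median log2 difference of the tested genes was -0.65 for the macrophage and Kupffer list and -2.68 for the biliary and intestinal list. Neutrophil markers, of interest because neutrophils store lipocalin 2, summed to 22.96, the lowest of the group. What sets this library apart was not tested; results are given with it and, where they change, without it.

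**Figure D1:**
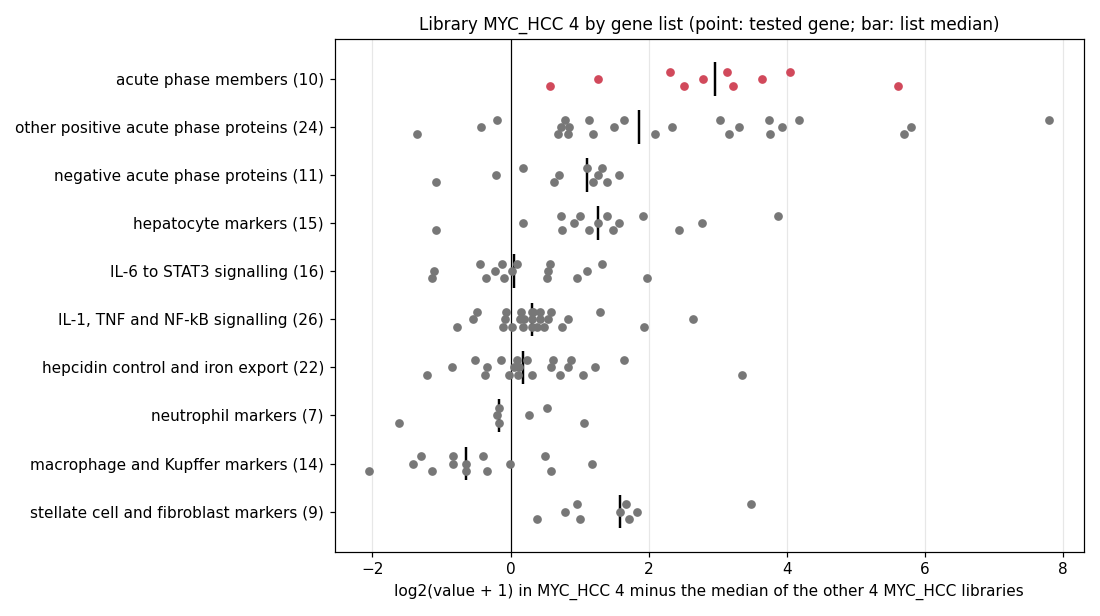
Each point is a tested gene and each bar the median of its list; the x axis is log2(value + 1) in MYC_HCC 4 minus the median of the other 4 MYC_HCC libraries, with the number of tested genes in brackets. The acute phase genes have a median of 2.96 and lie furthest to the right as a list. The median is 1.86 for the other positive acute phase proteins, 1.27 for the hepatocyte markers, 1.10 for the negative acute phase proteins and -0.11 for all genes.

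Differences between groups are on the log2(value + 1) scale with the limma standard error (SE), and a gene is called at a Benjamini-Hochberg adjusted p under 0.05 over all 13253 genes. In MYC_OFF against MYC_HCC, 4 of the 10 genes fell (Saa1, Saa2, Crp and Hamp) and none rose, where 39.4% of all genes fell and 18.9% rose (58.3% called). The same comparison in the Twist1-labelled groups gave 3 falls (Saa2, Crp and Hamp) and no rise, where 33.5% of all genes fell and 13.1% rose (46.6% called). In MYC_Recur against MYC_OFF, 2 of the 10 rose (Saa2 and Crp) and none fell, where 37.5% of all genes rose and 12% fell (49.4% called). These shares are near or below the background, so the counts alone say nothing particular about the 10 genes. Library values did not overlap between the groups for 4, 5 and 7 of the 10 genes in these 3 comparisons, against 50.1%, 50.5% and 53.4% of all genes. The median difference of the 10 was -0.96 against -0.38 for all genes in the first comparison, -0.12 against -0.32 in the second and 0.62 against 0.45 in the third. Without MYC_HCC 4 the first of these was -0.41 against -0.40 for all genes, so its excess rested on that library. Scaling by the median of ratios moved the median of all genes to 0.08, 0.03 and -0.09, and then 3, 2 and 1 of the 10 genes were called, with Crp in all 3 comparisons. MYC_OFF against MYC_HCC and MYC_Recur against MYC_OFF share the MYC_OFF libraries, so a low value there enters both.

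Leaving MYC_HCC 4 out of the fit narrowed the estimated spread of most of these genes and changed the counts, an alternative chosen after seeing the data for the comparisons that do not contain MYC_HCC. Without it, 13143 genes were tested and the same 4 genes fell in the first comparison, where 41.8% of all genes fell (61.1% called). In the second, Saa1 also fell and Lcn2 and Fgl1 rose, giving 4 falls and 2 rises where 36.9% of all genes fell and 14.2% rose (51.1% called). MYC_Recur against MYC_OFF then had 6 rises (Saa1, Saa2, Saa4, Crp, Apcs and Hamp) and 1 fall (Itih4), where 41.3% of all genes rose and 12.9% fell (54.1% called). The size of a difference between groups that do not contain MYC_HCC 4 is the same in both fits, and only its error differs.

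No acute phase gene was called in the other 4 comparisons with all libraries. In MYC_Twist1_HCC against MYC_HCC (6.43% of genes called), limma gave 1 unadjusted p under 0.05, for Hamp (-0.54, SE 0.23, adjusted p = 0.160), which was -0.31 (SE 0.18, adjusted p = 0.326) without MYC_HCC 4. In MYC_Recur against MYC_HCC (10.8% called) it gave 2, for Hamp (-0.73, SE 0.27, adjusted p = 0.0919) and Itih4 (-2.15, SE 0.92, adjusted p = 0.149). Without MYC_HCC 4 these differences were -0.49 (adjusted p = 0.150) and -1.10 (adjusted p = 0.163), and Hamp was called without MYC_HCC 1 (-0.88, adjusted p = 0.0461). Without MYC_HCC 4, where 5.99% of genes were called higher (9.75% called), Saa4 and Apcs were called higher in MYC_Recur. MYC_Twist1_OFF against MYC_OFF (0.00755% called) gave no unadjusted p under 0.05 for these genes. The interaction, which asks whether the OFF difference itself differs between the Twist1-labelled and MYC groups, gave none either (0.0981% called; lowest adjusted p = 0.654). The smaller number of calls in the Twist1-labelled groups is therefore not shown to be a difference between the 2 backgrounds.

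**Figure D2:**
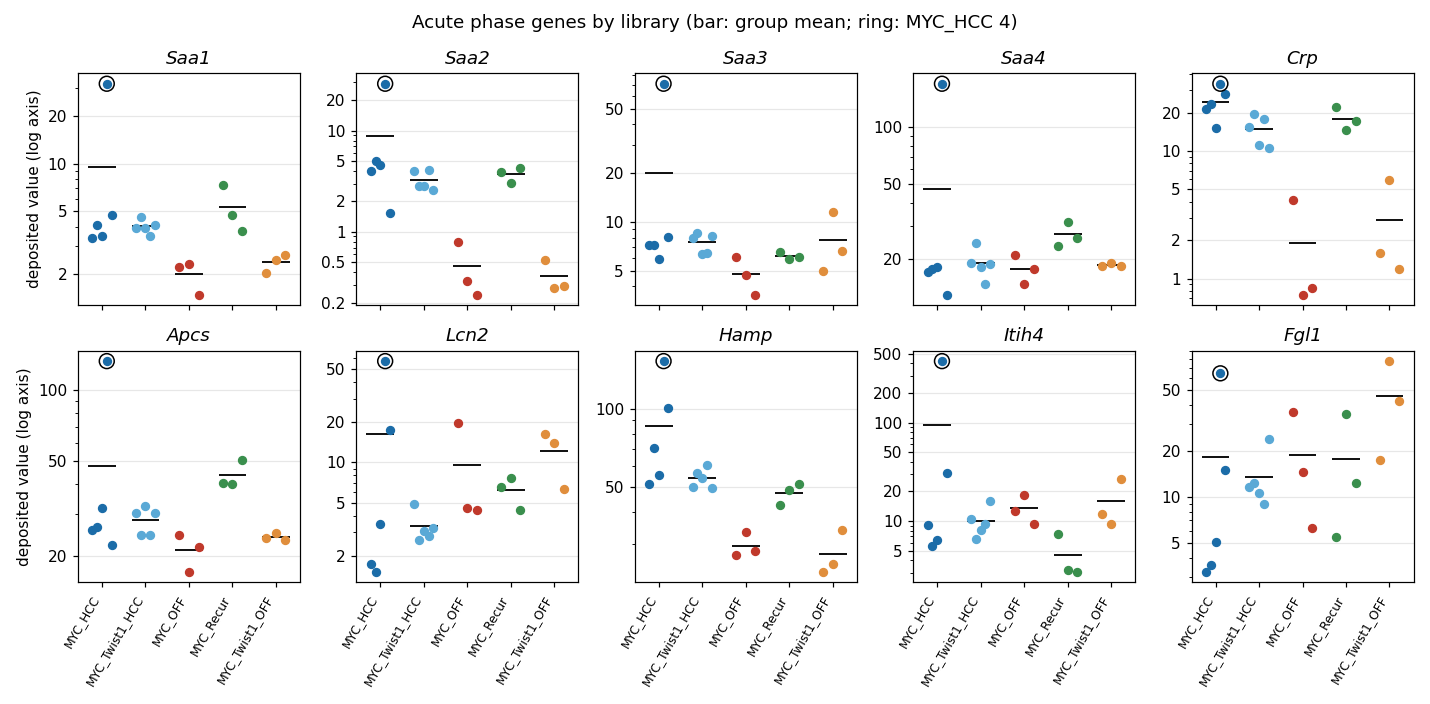
Deposited value of each of the 10 genes (log axis, own scale per gene) in every library by group; bars are group means and the ring marks MYC_HCC 4. MYC_HCC 4 is the highest point in 9 panels, and the OFF groups lie below the other groups for Saa1, Saa2, Crp and Hamp.

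Saa1 and Saa2 encode the acute phase forms of serum amyloid A, small apolipoproteins carried on high-density lipoprotein. Saa2 (chr7:46751790-46754313) was listed at 0.8, 0.33 and 0.24 in MYC_OFF and at 0.53, 0.28 and 0.29 in MYC_Twist1_OFF. It stood at 4, 5.07, 4.62, 29.17 and 1.52 in MYC_HCC, at 3.99, 2.83, 2.83, 4.09 and 2.62 in MYC_Twist1_HCC and at 3.92, 3.07 and 4.28 in MYC_Recur. All 6 OFF libraries were therefore below 1 and all 13 others above it, with no overlap. Saa2 fell by 2.21 (SE 0.49, adjusted p = 0.000930) in MYC_OFF against MYC_HCC and by 1.63 (SE 0.49, adjusted p = 0.0116) between the Twist1-labelled groups. MYC_Recur was higher than MYC_OFF by 1.72 (SE 0.55, adjusted p = 0.0149). Saa2 values this low sit close to the added 1, so the log2 differences understate the ratios. With the libraries scaled by the median of ratios the MYC_Recur difference was 1.40, with an adjusted p of 0.0513. With a pseudocount of 5 the Saa2 calls of the Twist1-labelled groups (adjusted p = 0.136) and of MYC_Recur against MYC_OFF (adjusted p = 0.138) were lost.

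Saa1 (chr7:46740497-46742980) moved less. Its values were 2.23, 2.33 and 1.49 in MYC_OFF, 2.04, 2.45 and 2.66 in MYC_Twist1_OFF and 7.37, 4.77 and 3.75 in MYC_Recur. They were 3.38, 4.07, 3.5, 32.06 and 4.76 in MYC_HCC and 3.95, 4.63, 3.93, 3.51 and 4.11 in MYC_Twist1_HCC. The OFF libraries again lay below every other library, by a narrower margin. Saa1 fell by 1.26 (SE 0.47, adjusted p = 0.0273) in MYC_OFF against MYC_HCC, and by 0.71 (adjusted p = 0.00648) without MYC_HCC 4. That call was lost when libraries were scaled by trimmed mean of M values (adjusted p = 0.0866) or the median of ratios (adjusted p = 0.135), with a pseudocount of 5 (0.0645), with the replicate number as a block (0.0741), with only the compared groups in the fit (0.108), and when MYC_OFF 1 (0.0518) or MYC_OFF 3 (0.0895) was left out. Between the Twist1-labelled groups the difference was -0.57 (adjusted p = 0.328, or 0.0221 without MYC_HCC 4), and between MYC_Recur and MYC_OFF it was 1.03 (adjusted p = 0.109, or 0.000792 without MYC_HCC 4).

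The ratio of Saa2 to Saa1 within a library does not depend on how libraries were scaled. It lay between 0.142 and 0.359 in MYC_OFF and between 0.109 and 0.260 in MYC_Twist1_OFF. In MYC_Recur it lay between 0.532 and 1.14, in MYC_Twist1_HCC between 0.611 and 1.17, and in 4 of the 5 MYC_HCC libraries between 0.910 and 1.32. MYC_HCC 5, at 0.319, fell within the range of the MYC_OFF libraries. The balance of the pair thus differed between OFF and other libraries with that single overlap; this ratio was chosen after the values were seen and has no test. The spliced transcripts are identical at 94.4% of aligned bases (572 of 606), so how reads were divided between Saa1 and Saa2 is uncertain, and the sources used here do not give the counting settings.

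**Figure D3:**
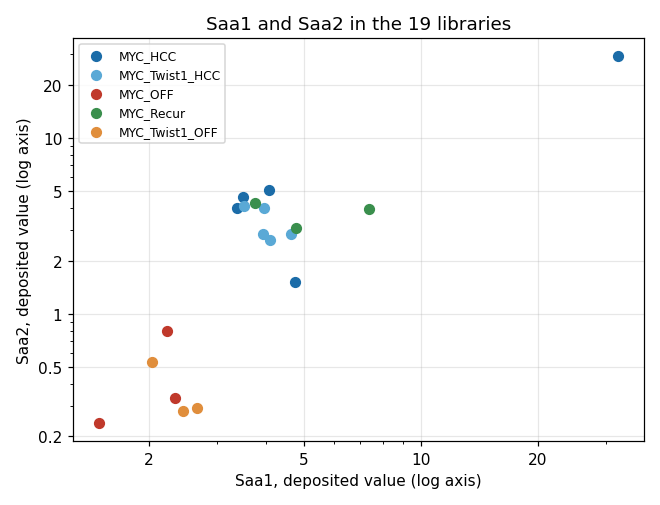
Saa1 (x) against Saa2 (y), deposited values on log axes, 1 point per library coloured by group. The 6 OFF libraries form the lower left group with Saa2 below 1, and MYC_HCC 4 stands alone at the upper right.

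Saa3, an inducible form made in several tissues and by macrophages, and Saa4, the constitutive form, showed smaller differences. Saa3 (chr7:46711998-46715700) lay between 3.56 and 6.08 in MYC_OFF, 4.96 and 11.53 in MYC_Twist1_OFF, 5.87 and 6.54 in MYC_Recur, 6.29 and 8.51 in MYC_Twist1_HCC and 5.88 and 8.04 in the 4 MYC_HCC libraries other than MYC_HCC 4, which stood at 71.17. Its MYC_OFF difference from MYC_HCC was -1.13 (SE 0.53, adjusted p = 0.0757), or -0.50 (SE 0.23, adjusted p = 0.0670) without MYC_HCC 4, and it was called without MYC_HCC 3 (-1.35, adjusted p = 0.0441). Saa4 (chr7:46727998-46732603) lay between 13.03 and 24.48 in every library outside MYC_Recur except MYC_HCC 4 (170.48). In MYC_Recur it stood at 23.68, 31.68 and 25.94, above all 3 MYC_OFF libraries (21.08, 14.78 and 17.7). The difference was 0.58 (SE 0.60, adjusted p = 0.444, or 0.0206 without MYC_HCC 4), close to the 0.45 by which the median of all genes moved, and it turned to -0.07 with the median of ratios.

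Crp and Apcs are the short pentraxins, pattern recognition proteins that bind phosphocholine and other ligands on microbes and dying cells and engage complement. Crp (chr1:172698055-172833031) showed the largest differences of the 10 genes in all 3 comparisons with calls. It was listed at 4.12, 0.75 and 0.85 in MYC_OFF and at 1.59, 5.9 and 1.18 in MYC_Twist1_OFF. In the other groups it stood at 21.5, 23.27, 15.03, 33.63 and 27.9 (MYC_HCC), 15.39, 19.64, 11.07, 17.86 and 10.51 (MYC_Twist1_HCC) and 22, 14.47 and 17.25 (MYC_Recur). The highest OFF value, 5.9, was below the lowest of the other 13, 10.51. Crp fell by 3.26 (SE 0.39, adjusted p = 1.98e-06) in MYC_OFF against MYC_HCC, which is -2.88 relative to the median of all genes. It fell by 2.19 (SE 0.39, adjusted p = 0.000217) between the Twist1-labelled groups, and was 2.87 higher (SE 0.44, adjusted p = 3.85e-05) in MYC_Recur than in MYC_OFF, or 2.42 relative to the median of all genes. The 3 Crp calls were kept in every alternative run.

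Apcs (chr1:172893961-172895041), the inducible pentraxin of the mouse, followed another course. Its values in MYC_Recur were 40.72, 40.29 and 50.48, above every other library except MYC_HCC 4 (132.57). They were 24.37, 17.07 and 21.74 in MYC_OFF, 23.74, 24.98 and 23.26 in MYC_Twist1_OFF, between 24.41 and 32.26 in MYC_Twist1_HCC and between 22.13 and 31.89 in the other 4 MYC_HCC libraries. The OFF groups overlapped the HCC groups, unlike for Crp. In MYC_Recur against MYC_OFF the difference was 1.03 (SE 0.44, adjusted p = 0.0583, or 0.000195 without MYC_HCC 4), and against MYC_HCC it was 0.25 (adjusted p = 0.743), or 0.71 (adjusted p = 0.0158) without MYC_HCC 4. In MYC_OFF against MYC_HCC it was -0.78 (SE 0.39, adjusted p = 0.0949), or -0.32 (SE 0.17, adjusted p = 0.119) without MYC_HCC 4. Of 18 alternatives, 1 called Apcs lower in this comparison, the fit without MYC_HCC 5 (55.9% of all genes called). The promoter windows of the 2 pentraxin genes are identical at 55.6% of aligned bases, and the matches printed above do not coincide.

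Hamp (chr7:30942368-30944032) encodes hepcidin. It was listed at 27.24, 33.57 and 28.27 in MYC_OFF and at 23.52, 25.22 and 34.15 in MYC_Twist1_OFF. The MYC_Recur libraries stood at 42.65, 48.51 and 51.03, the MYC_Twist1_HCC libraries between 49.57 and 60.51, and the MYC_HCC libraries at 51.23, 70.39, 55.33, 152.23 and 100.43. The 6 OFF libraries lay below all 13 others. Hamp fell by 1.39 (SE 0.27, adjusted p = 0.000283) in MYC_OFF against MYC_HCC and by 0.96 (SE 0.27, adjusted p = 0.00756) between the Twist1-labelled groups; the second call was lost with trimmed mean of M values (adjusted p = 0.0695) and the median of ratios (adjusted p = 0.164). MYC_Recur exceeded MYC_OFF by 0.66 (SE 0.30, adjusted p = 0.0770, or 0.0192 without MYC_HCC 4), of which 0.20 remained relative to the median of all genes, and the value was -0.00 with the median of ratios. The spliced transcripts of Hamp and Hamp2 are identical at 94.6% of aligned bases, so the division of reads between them is uncertain; Hamp2 lay at or below 9.73 outside MYC_HCC 4.

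**Figure D4:**
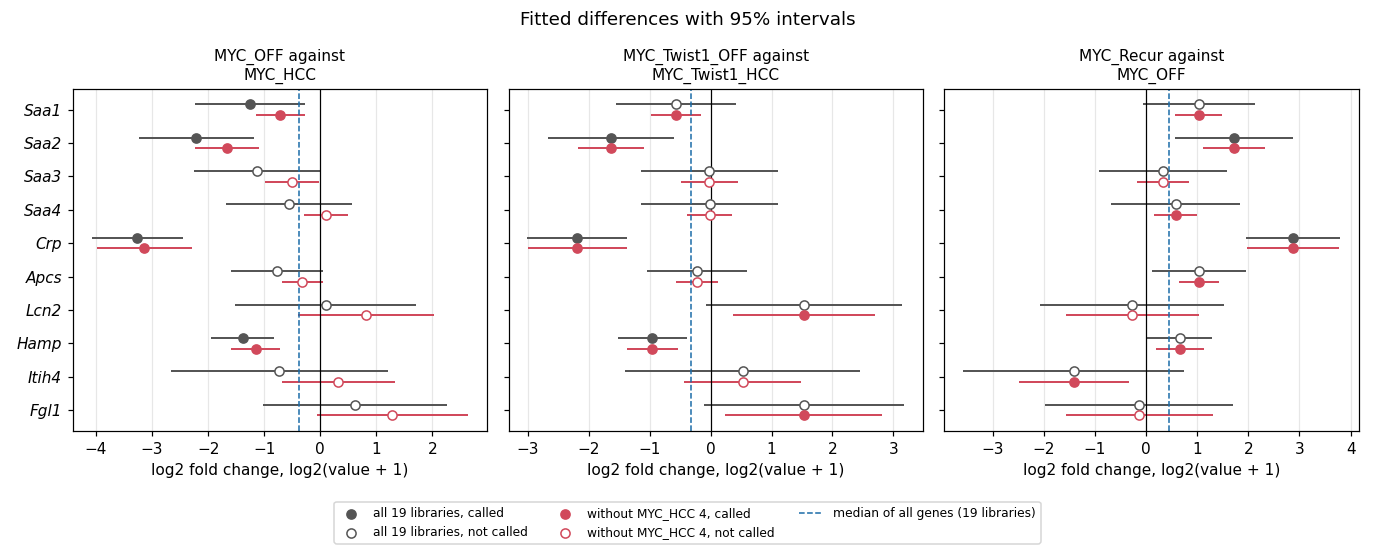
Fitted log2 differences with 95% intervals for the 10 genes in the 3 comparisons with calls, with all 19 libraries (grey) and without MYC_HCC 4 (red); filled points are called, and the dashed line is the median of all genes. Crp and Saa2 have the most negative values in the left and middle panels and the most positive in the right one, and the red intervals are narrower for most genes.

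Lcn2, Itih4 and Fgl1 varied widely and were not called with all libraries. In MYC_OFF against MYC_HCC they differed by 0.10 (SE 0.77), -0.73 (SE 0.92) and 0.62 (SE 0.78). Without MYC_HCC 4 these differences were 0.81, 0.32 and 1.29, again not called. Between the Twist1-labelled groups each of these genes had a difference above 0, Itih4 at 0.53 (SE 0.92). Lcn2 (chr2:32384633-32388252), which starves bacteria of iron by binding their siderophores, stood at 19.72, 4.59 and 4.42 in MYC_OFF and at 16.37, 13.9 and 6.28 in MYC_Twist1_OFF. It lay between 2.63 and 4.9 in MYC_Twist1_HCC, with no overlap with MYC_Twist1_OFF, and was listed at 1.75, 1.52, 3.47, 57.08 and 17.37 in MYC_HCC. The difference between the Twist1-labelled groups was 1.53 (SE 0.77, adjusted p = 0.109, or 0.0280 without MYC_HCC 4). Lcn2 is also a neutrophil granule protein, and the summed neutrophil markers were 276.76, 136.32 and 38.66 in the same 3 MYC_OFF libraries, between 56.38 and 141.19 in MYC_Twist1_OFF and between 32.64 and 62.92 in MYC_Twist1_HCC. Of the 12 listed markers measured, most of that sum came from the receptors Cxcr2 and Csf3r: Cxcr2 lay between 26.22 and 211.79 in MYC_OFF, while the granule enzymes Elane and Mpo were at most 0.16 in any OFF library and S100a9 at most 2.06. The granule peptide Camp was higher in MYC_OFF, at 11.99, 1.25 and 1.06, than in MYC_HCC, at most 0.95. The Twist1-labelled groups overlapped, with 4.38, 1.79 and 1.82 in MYC_Twist1_OFF and at most 1.86 in MYC_Twist1_HCC. Camp and Lcn2 both had their highest MYC_OFF value in MYC_OFF 1. In MYC_HCC the summed neutrophil markers lay between 22.96 and 64.97. They were 22.96 in MYC_HCC 4 and 33.17 in MYC_HCC 5, the libraries with Lcn2 at 57.08 and 17.37. The granule protein Ltf reached 1.47 in MYC_OFF and 1.52 in MYC_Twist1_OFF, within its range in the HCC libraries, whose highest was 4.09. The part of these markers in the Lcn2 values was not tested.

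Itih4 (chr14:30886476-30902353), a heavy chain that is cleaved by kallikrein in plasma, stood at 7.44, 3.16 and 3.05 in MYC_Recur, the last 2 being the lowest of all 19 libraries. MYC_OFF stood at 12.6, 18.46 and 9.25, all above MYC_Recur, and MYC_Twist1_OFF at 11.9, 9.33 and 26.62. The MYC_Recur difference from MYC_OFF was -1.42 (SE 1.03, adjusted p = 0.264, or 0.0265 without MYC_HCC 4), against a median of 0.45 for all genes. Fgl1 (chr8:41191434-41215156), a hepatocyte-secreted ligand of the T cell receptor LAG3, ranged from 6.25 to 35.85 within MYC_OFF, from 5.48 to 35.13 within MYC_Recur and from 17.31 to 77.43 within MYC_Twist1_OFF. Its difference between the Twist1-labelled groups was 1.53 (SE 0.78, adjusted p = 0.116, or 0.0452 without MYC_HCC 4), and their values overlapped.

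Other acute phase genes were read from lists, whose counts stand beside the shares of all genes. In MYC_OFF against MYC_HCC 39.4% of all genes fell and 18.9% rose. Between the Twist1-labelled groups 33.5% fell and 13.1% rose, and in MYC_Recur against MYC_OFF 37.5% rose and 12% fell. List counts near these shares, here and below, say nothing particular about a list. Of 24 tested positive acute phase genes outside the 10, 7 fell and 2 rose in MYC_OFF against MYC_HCC, 4 fell and 1 rose between the Twist1-labelled groups, and 5 rose and 1 fell in MYC_Recur against MYC_OFF. The falls of the first comparison included Itih3, another inter-alpha-trypsin inhibitor heavy chain (-2.16, adjusted p = 3.52e-06), the fibrinogen chains Fga (-2.43) and Fgb (-1.69) and the antitrypsin gene Serpina1a (-1.88), whose close paralogs make its reads uncertain, and complement factor B (Cfb, 1.53) rose. Itih3 was 1.81 higher in MYC_Recur than in MYC_OFF (adjusted p = 0.000106), while the metallothionein Mt2 was 2.63 lower (adjusted p = 0.000226). Itih3 and Itih4 thus differed in sign in that comparison, although only the former was called with all libraries. Without MYC_HCC 4 the list gave 7 falls and 1 rise, 5 falls and 2 rises, and 8 rises and 1 fall in these 3 comparisons. The shares of all genes, in the same order, were then 41.8% and 19.3%, 36.9% and 14.2%, and 41.3% and 12.9%.

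The negative acute phase proteins, which the liver makes less of during inflammation, moved in the same direction as Saa2 and Crp and not in the opposite one. Of 11 tested, 10 fell and none rose in MYC_OFF against MYC_HCC (median -2.03), 10 fell and none rose between the Twist1-labelled groups (median -1.49), and 10 rose and none fell in MYC_Recur against MYC_OFF (median 1.88). Examples in the first comparison are the vitamin D binding protein Gc (-2.42, adjusted p = 1.44e-06), albumin (Alb, -2.79), the retinol carrier Rbp4 (-2.06) and transthyretin (Ttr, -2.55). Their medians were further from 0 than those of the 10 acute phase genes in the same comparisons, -0.96 (-0.41 without MYC_HCC 4), -0.12 and 0.62. Hepatocyte markers, of which some are also on this list, gave 11 falls and 2 rises among 15 tested in the first comparison. In that comparison 39.4% of all genes fell and 18.9% rose. Without MYC_HCC 4 the counts of the negative list were the same in these 3 comparisons.

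Signalling genes upstream of the response were mixed. Among all genes, 39.4% fell and 18.9% rose in MYC_OFF against MYC_HCC, and 33.5% and 13.1% between the Twist1-labelled groups. In MYC_Recur against MYC_OFF 37.5% of all genes rose and 12% fell. In the interleukin 6 to STAT3 list, 6 of 16 tested genes fell and 2 rose in MYC_OFF against MYC_HCC (median -0.56); the C/EBP factor Cebpb (-1.97, adjusted p = 5.48e-07), the receptor Il6ra (-1.81) and the feedback inhibitor Cish (-1.32) fell, and the feedback inhibitor Socs3 rose (2.81, adjusted p = 1.36e-05). Between the Twist1-labelled groups 7 fell and 2 rose, again with Cebpb (-1.81) and Il6ra (-1.57) lower and Socs3 (2.24) higher. Of the same list 5 rose and 3 fell in MYC_Recur against MYC_OFF, with Cebpb at 1.92, Il6ra at 1.70 and Socs3 at -3.24. In the list for interleukin 1, tumor necrosis factor and NF-kB, 13 of 26 tested genes fell and 2 rose in MYC_OFF against MYC_HCC, among them the inhibitor Nfkbib (-1.96), the kinase Irak1 (-2.73), the adaptor Traf2 (-1.19), the precursor subunit Nfkb2 (-1.54) and, rising, the cytokine Tnf (3.51). The Twist1-labelled groups gave 7 falls and no rise on this list, and MYC_Recur against MYC_OFF gave 10 rises and 1 fall.

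Genes that control hepcidin or handle iron gave 9 falls and 3 rises among 22 tested in MYC_OFF against MYC_HCC, beside the fall of Hamp, and 9 falls and 5 rises without MYC_HCC 4. Of all genes 39.4% fell and 18.9% rose in this comparison, and 41.8% and 19.3% without MYC_HCC 4. Shares for the other comparisons are given above. The ferritin light chain Ftl1 (-3.24, adjusted p = 8.93e-08), the transferrin receptor Tfrc (-2.01) and the BMP mediator Smad1 (-1.50) fell, and the activin receptor Acvr2a rose (3.48). Between the Twist1-labelled groups 5 fell and 2 rose, with Ftl1 at -2.85 and the ligand Bmp2, which induces hepcidin, at 2.70. In MYC_Recur, compared with MYC_OFF, 8 rose and 3 fell, with Ftl1 at 2.62, Tfrc at 1.90 and Bmp2 at -2.80, the last going against Hamp in sign. Receptors and partners of the acute phase proteins gave 3 falls and 4 rises among 12 tested in MYC_OFF against MYC_HCC; the lipopolysaccharide co-receptor Cd14 (2.50) and the Fc receptor Fcgr1 (2.09), which binds pentraxins, rose, and Fcgr3 (-1.25) and Tlr4 (-0.89) fell. Liver transcription factors gave 7 falls and 1 rise among 12 (2 rises without MYC_HCC 4), with Foxa2 rising by 6.31.

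The genes whose values followed each acute phase gene most closely over the 19 libraries were found by the root mean square difference of log2(value + 1) after centring each gene. Crp was followed by the mitochondrial fusion gene Mfn1 (0.214) and the endosomal sorting gene Hgs (0.234), where the median over all genes was 1.3. Hamp was followed by the phosphatase gene Dusp1 (0.215) and the plasma protein Fetub (0.222; median 0.77). For Saa2 the closest were the glycine methyltransferase Gnmt (0.238) and the glycerol kinase Gyk (0.317), for Saa1 the glutathione transferase Gsta3 (0.215), for Saa3 Ndrg2 (0.236), for Apcs Eltd1 (0.264) and for Fgl1 Gm5617 (0.720). Gnmt stood at 26.7 ± 5.95 (SD, n = 3) in MYC_OFF, 103 ± 17.6 (n = 3) in MYC_Recur and 70.7 ± 6.35 (n = 5) in MYC_Twist1_HCC. Itih4 was followed by the gluconeogenic enzyme Fbp1 (0.496) and Lcn2 by the bile acid transporter subunit Slc51b (0.422). Fbp1 (300.29), Slc51b (67.78), Gnmt (454.54), Gsta3 (424.57), Ndrg2 (386.92) and Fetub (40.65) had their highest values in MYC_HCC 4, so these likenesses rest in part on that library. Gyk (47.3) and Dusp1 (10.5) had their highest values in the MYC_HCC group. Eltd1 had group means from 0.20 to 1.48, close to the added 1, which shrinks its log2 differences. Saa4 was not searched, since its group means differed by only 0.58.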

How the data were processed

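RNA of 19 mouse liver tumor samples was sequenced. The signal the authors deposited is a normalized value for each gene symbol and library. The submitters' processing notes name mm10 and the tools Trimmomatic, STAR, Picard, featureCounts and DESeq2. How the values were computed is not given in the sources used here, so the read depth behind each value is unknown and no counting interval or detection limit is given. Of 19511 rows, 25 bare numbers were left out. Genes with a value of at least 1 in at least 3 libraries (13253) were tested on log2(value + 1) with limma (version 3.58.1, R 4.3.3), using an intensity trend and 5 group means fitted together (14 residual degrees of freedom). The two-sided p-values were adjusted by Benjamini-Hochberg within each comparison and the threshold was 0.05. This scale understates changes of low genes. The script was tested on simulated data, with 200 genes of higher mean value shifted in each comparison. Of the 4-fold shifts 79% to 90% were called, and of the 2-fold shifts 28% to 50%. Unshifted genes made up 2.1% to 9.72% of the calls. A gene that was not called may therefore still differ by 2-fold. A count test had been planned only for whole counts. The 10 genes and the other lists were chosen with earlier results of these data known. The text names all 10 genes, and at most 4 genes with the smallest p per list and comparison plus 1 called the other way. For each gene whose group means differ by at least 1, it also names 1 or 2 of the 2 genes nearest in pattern. The cell type markers named beside Lcn2 and for MYC_HCC 4 were chosen after their values were seen. Alternatives were other scalings, pseudocounts and filters, a replicate block, a fit of the compared groups alone and leaving out libraries. The fit without MYC_HCC 4, in comparisons that do not contain it, was chosen after seeing the data. The main fit did not pair samples by replicate number, since the labels do not say whether the number pairs them. Sequences are from RefSeq and coordinates from GENCODE.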

Additional observations from a re-analysis of the deposited data

Results flagged for a closer look

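In each group of 5 libraries, a library was taken up here when its gap to the nearest other library, as a share of the range of the group, exceeded Dixon's 95% critical value of 0.71. Of 20 groups checked (10 genes in 2 groups), 10 passed. Chance gives about 1 in 20 for a single group, but genes of 1 library are not independent, and 8 of the 10 were the same library, MYC_HCC 4. Of all 13253 genes tested, 15.3% passed in MYC_HCC (8.78% with MYC_HCC 4 as the high library) and 10.6% in MYC_Twist1_HCC. In that library the share was 0.952 for Saa1 (listed at 32.06), 0.872 for Saa2 (29.17), 0.967 for Saa3 (71.17), 0.968 for Saa4 (170.48), 0.912 for Apcs (132.57), 0.715 for Lcn2 (57.08), 0.940 for Itih4 (420.8) and 0.808 for Fgl1 (64.4). Crp and Hamp did not pass. The other 2 were in MYC_Twist1_HCC: Lcn2 in library 1, at 4.9 (share 0.727), and Fgl1 in library 5, at 23.95 (share 0.782). What sets these libraries apart was not tested.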

How the results depend on the processing

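The number of the 10 genes called stayed within 1.5 times of its value in MYC_OFF against MYC_HCC (4, and 3 to 5 when a library was left out), where without MYC_HCC 4 and 5 the 4 falls were joined by rises of Lcn2 and Fgl1 (58.2% of all genes called), and stayed at 0 under every alternative run in the interaction, in MYC_Twist1_OFF against MYC_OFF and in MYC_Twist1_HCC against MYC_HCC. Between the Twist1-labelled groups it was 3, and 6 with only the compared groups in the fit (56.9% of all genes called). It was also 6 without MYC_HCC 4 and 5 (51.3%). When 1 library was left out it was 3 to 6, 6 being only without MYC_HCC 4 (51.1%), which is in neither group. In MYC_Recur against MYC_OFF it was 2, and 1 with a pseudocount of 5, 1 with the median of ratios, 5 with only the compared groups (42.4% of all genes called), 7 without MYC_HCC 4 and 5 (54.2%), and 2 to 7 when 1 library was left out, 7 being without MYC_HCC 4 (54.1%). In MYC_Recur against MYC_HCC it was 0, and 1 without MYC_HCC 4 and 5, and 0 to 2 when 1 library was left out: 1 without MYC_HCC 1 (Hamp, lower) and 2 without MYC_HCC 4. Removing MYC_HCC 4 takes out the library with the highest value of 9 genes; the cause of the other changes was not tested.

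Replicate numbers are shared between groups by the labels, which do not say whether they pair samples. Samples with the same number did not deviate together in every pair, with correlations from -0.17 to 0.38. Groups this small cannot settle whether the number pairs samples. With the replicate block, 5 genes were called between the Twist1-labelled groups (46.2% of all genes called) and 4 in MYC_Recur against MYC_OFF (50.1%); samples correlated best with their own number in 4 of 6 and 0 of 6 cases. The replicate block changed the Saa1 call in MYC_OFF against MYC_HCC (adjusted p = 0.0741).

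Signs turned for many values that were not called, and only some are given here. Between the Twist1-labelled groups Saa3 changed sign in 9 of 19 alternatives and Saa4 in 5 of 19. Lcn2 did so in 5 of 18 in MYC_OFF against MYC_HCC and in 5 of 18 in MYC_Recur against MYC_HCC. Saa4 in MYC_Recur against MYC_OFF was -0.0707 and Hamp -0.00439 with the median of ratios. Saa4 in MYC_Recur against MYC_HCC was -0.0311 with a pseudocount of 5, -0.0794 with the trimmed mean of M values, -0.0916 with the median of ratios, -0.108 with equal totals and -0.22 to 0.68 when 1 library was left out. The scaling sets how all genes split: called genes that were higher made up 32.5% in MYC_OFF against MYC_HCC and 52.7% with the median of ratios, 28.0% and 51.5% between the Twist1-labelled groups, and 75.8% and 47.3% in MYC_Recur against MYC_OFF. Without MYC_HCC 4 and 5 the number of all genes called went from 852 to 350 in MYC_Twist1_HCC against MYC_HCC and from 1435 to 834 in MYC_Recur against MYC_HCC. The read depth behind each value is unknown, so what depth limits cannot be given.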
